A study of Homo sapiens with 3 samples.

Results

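The genes of fatty acid and triglyceride synthesis were followed in HepG2, an established human hepatocarcinoma line, after treatment with etoposide, a topoisomerase II poison that causes DNA double-strand breaks. The set comprised ACLY, ACACA, ACACB, FASN, SCD, ELOVL6, GPAM, DGAT1, DGAT2 and SREBF1. They were taken by gene name from the array design, which gives 10 of 27274 gene names and 15 of 34127 probes. Total RNA from cells at 0 μM (labelled untreated), 10 μM (the low dose) and 100 μM (the high dose) etoposide, each for 30 h, was hybridised to one-colour Agilent arrays. The study's table of array ratios names DMSO, a common drug solvent, as the reference, so whether the control received solvent is unsettled between the sources. The cells of all 3 arrays were the same unmodified line grown in the same medium with serum, and the low dose was chosen in the study for senescence and the high dose for apoptosis.

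Each condition was measured on 1 array, so the fold changes are without a replicate check and carry no p-values. The error quoted is the spot-to-spot standard deviation (spot SD), taken from the 50 repeated probes nearest in signal on the same arrays, and it covers neither the spread between cultures nor that between hybridisations. Signals are given as the scanner software left them, before scaling between arrays, whereas log2 fold changes are after each array was scaled to its own 75th percentile, so that an equal signal on 2 arrays need not be a fold change of 1. Of the 34127 probes, 19836 to 20153 were well above background on an array, and no spot was saturated. In bulk RNA, fewer cells expressing a gene and less RNA per cell cannot be told apart. All 10 hepatocyte markers examined were well above background on every array, with AFP at 79159 in control cells and at 76186 and 62990 with the low and the high dose, whereas the adipocyte genes ADIPOQ and LEP and the fibroblast collagens COL1A1, COL1A2 and COL3A1 were not well above background on any. The other fibroblast marker, PDGFRB, was well above background in control (95.6) and low-dose (67) cells but not in high-dose cells (22.5). Among blood cell markers, PTPRC, CD3E and CD14 were well above background in every condition and HBB was in none, and of 3 endothelial markers PECAM1 and CDH5 were, so not every marker of another cell type was at background. CD14 read 521, 1184 and 1847 in order of dose. The part of these marker signals in the results was not tested.

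De novo lipogenesis turns citrate into fat in the liver cell. ATP citrate lyase releases acetyl-CoA, acetyl-CoA carboxylase makes malonyl-CoA from it, fatty acid synthase builds palmitate, and an elongase and a desaturase lengthen it and introduce the first double bond. Glycerol-3-phosphate acyltransferase and the diacylglycerol acyltransferases then place the acyl chains on glycerol to form triglyceride, and the transcription factor SREBP-1, encoded by SREBF1, is known for switching on most of these genes in response to insulin.

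The upstream sequences of 4 members, ACACA, ELOVL6, GPAM and SREBF1, are shown. By the brightest probe these had the lowest fold changes of the set at the low dose. For ACACB, which stood apart from the others at the high dose, 1 of the upstream sequences is added. Each holds the 250 bases before a start site in RefSeq, on GRCh38.p14 and read 5′ to 3′ along the gene's own strand. Capitals mark GGGCGG, the core of the GC box, or CCAAT, the core of the CCAAT box, on either strand. ACACA has 3 start sites in the table and ACACB 2. The first of ACACA (chr17:37406837-37407086, minus strand) and the second of ACACB (chr12:109154429-109154678, plus strand) are given, with ELOVL6 (chr4:110198616-110198865, minus strand), GPAM (chr10:112183766-112184015, minus strand) and SREBF1 (chr17:17836987-17837236, minus strand).
ACACA: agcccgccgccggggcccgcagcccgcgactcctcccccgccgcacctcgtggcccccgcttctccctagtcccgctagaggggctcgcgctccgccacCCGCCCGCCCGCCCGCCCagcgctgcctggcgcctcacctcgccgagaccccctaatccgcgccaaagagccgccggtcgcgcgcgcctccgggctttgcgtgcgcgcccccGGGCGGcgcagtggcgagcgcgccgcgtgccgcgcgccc
ELOVL6: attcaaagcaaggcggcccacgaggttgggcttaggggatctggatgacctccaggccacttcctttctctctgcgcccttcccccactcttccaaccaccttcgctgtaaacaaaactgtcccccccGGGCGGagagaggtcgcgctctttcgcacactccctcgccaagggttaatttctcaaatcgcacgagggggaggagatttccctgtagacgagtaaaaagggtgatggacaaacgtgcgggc
GPAM: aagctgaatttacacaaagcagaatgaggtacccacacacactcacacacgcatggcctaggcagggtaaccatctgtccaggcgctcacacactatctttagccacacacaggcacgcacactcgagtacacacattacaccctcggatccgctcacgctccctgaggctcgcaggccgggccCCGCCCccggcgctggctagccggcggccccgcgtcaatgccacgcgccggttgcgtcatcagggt
SREBF1: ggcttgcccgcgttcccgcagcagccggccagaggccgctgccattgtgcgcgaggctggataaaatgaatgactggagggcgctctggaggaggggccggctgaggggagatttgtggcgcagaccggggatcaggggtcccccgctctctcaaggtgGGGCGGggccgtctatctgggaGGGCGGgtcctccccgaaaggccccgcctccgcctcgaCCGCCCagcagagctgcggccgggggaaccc
ACACB: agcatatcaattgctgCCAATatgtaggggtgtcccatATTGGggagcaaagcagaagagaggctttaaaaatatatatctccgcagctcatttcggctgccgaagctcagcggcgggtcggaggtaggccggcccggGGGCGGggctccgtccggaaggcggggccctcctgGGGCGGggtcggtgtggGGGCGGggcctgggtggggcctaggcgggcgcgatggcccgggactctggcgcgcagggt

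Start sites were found for 7 of the 10 members (SCD, ACACA, ACACB, ACLY, ELOVL6, SREBF1 and GPAM), 11 sites in all. GGGCGG was present in at least 1 window of all 7, against 42.6% of the 35116 windows of the same length in the table. CCAAT was present in 4 of the 7 (SCD, ACACA, ACACB and ACLY), against 32% of all windows. The E-box CACGTG, held by 6.34% of windows, and TCACNCCAC, the classical sterol regulatory element, held by 0.883%, were found in none of the 11 windows. Members with several start sites had more windows in which a match could fall. The E-box reads the same on both strands, the motifs were searched on both strands and overlapping matches of 1 motif were counted, as in the run of GC boxes upstream of ACACA, which has 5 matches. The first ACACB window held none of the 4 motifs. These matches describe the letters only.

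At the low dose the members lay, as a set, slightly below the control. By the brightest probe of each gene, the largest decrease was that of ACACA, by 0.46 on the log2 scale. The highest value was that of DGAT2, at 0.20. The median log2 fold change of the 10 members was -0.24, and the median of all 16664 genes with a fold change was -0.04, with quartiles of -0.25 and 0.22. None passed 2-fold in either direction, against 3.38% of all genes that were higher and 1.61% that were lower by that much. Beyond 2 spot SDs by the brightest probe, 6 members were lower (SCD, ACACA, ACACB, ELOVL6, SREBF1 and GPAM) and DGAT2 was higher. By the same probes ACLY, FASN and DGAT1 lay within. Of all genes measured, 29.3% were lower and 24.4% higher by more than 2 spot SDs in this comparison. Again by the brightest probe, DGAT2 was above the control and the other members were below it, FASN (-0.06) and DGAT1 (-0.01) only slightly. The median of all genes was also below 0, and the share of all genes below 0 was not computed. The value of FASN went to 0.00 without scaling, and that of DGAT1 turned positive without scaling and with scaling to the spike-in controls. The dimmer ACACB probe lay above the control, at 0.72 ± 0.42. The second DGAT1 probe was lower beyond 2 spot SDs, at -0.66 ± 0.10, which is below the brightest-probe value of every member. No direction is therefore given for DGAT1 at this dose. The second ACACA probe gave -0.51 ± 0.10.

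At the high dose no common direction was seen. Their median log2 fold change was -0.01, with 5 values above 0 and 5 below, the signs of FASN, SCD, ACLY, DGAT1 and DGAT2 depending on the scaling, and the median of all 16779 genes was 0.10, with quartiles of -0.24 and 0.45. None passed 2-fold, against 6.84% of all genes that were higher and 3.71% that were lower. At 1.5-fold, ACACB was the 1 member that was higher, where 18.6% of all genes were. Beyond 2 spot SDs by the brightest probe, ACACA, ELOVL6 and SREBF1 were lower, where 27.8% of all genes were, and ACACB and DGAT2 were higher, where 35.2% of all genes were. DGAT2 turned negative without scaling and with scaling to the median of all probes, whereas the direction of the other 4 held under every scaling. Both doses were set against the same control array, so a high or a low value on that array enters both comparisons.

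**Figure D1:**
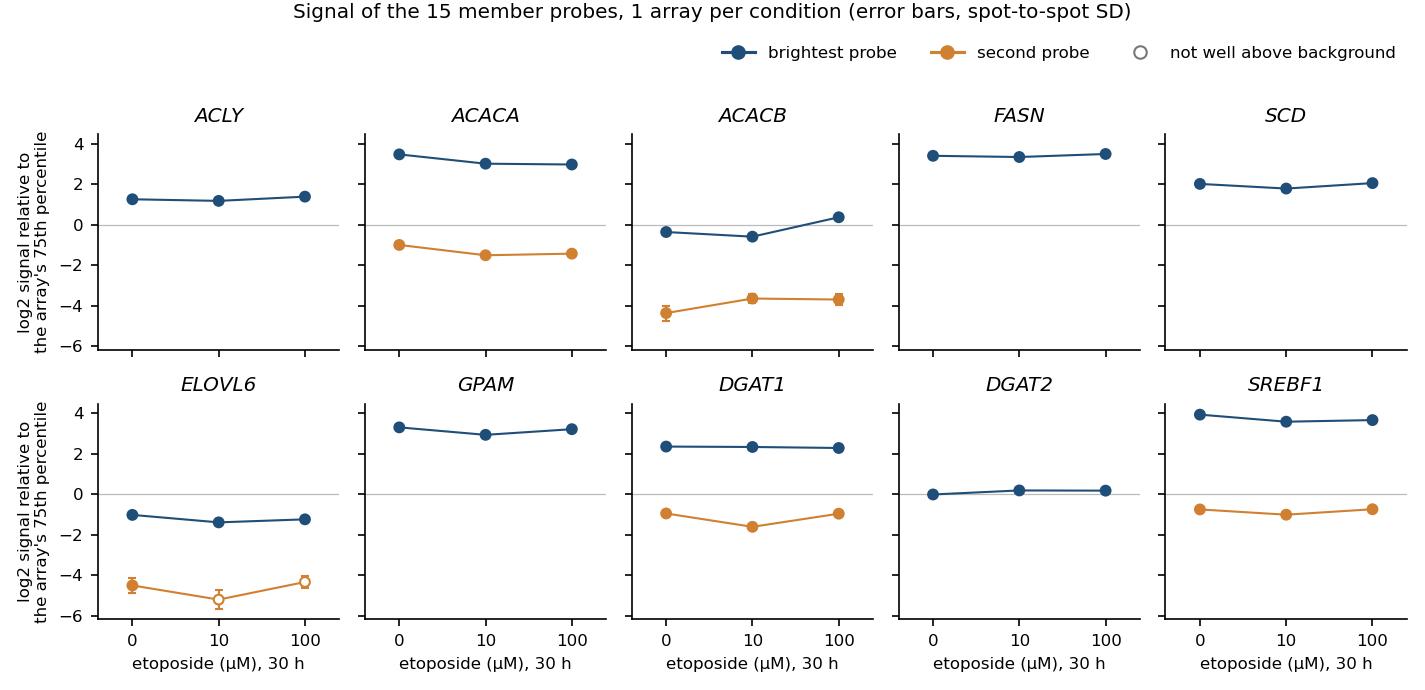
Processed signal of the 15 member probes on a log2 scale, each array relative to its own 75th percentile, against etoposide at 0, 10 and 100 μM for 30 h, with 1 panel per gene and 1 array per condition. Error bars are the spot-to-spot SD and are mostly smaller than the points, and open points are not well above background. Lines are nearly flat on this axis for FASN, ACLY and DGAT2, both ACACA probes drop at both doses, and the brighter ACACB probe is higher at 100 μM than in the control, by 0.72.

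The first step, release of acetyl-CoA from citrate, differed little. The signal of ACLY (ATP citrate lyase, chr17:37277494-37277553 on hg18, minus strand) was 1235 in control cells, 1213 with the low dose and 1132 with the high dose. Its log2 fold change was -0.09 ± 0.07 (spot SD) at the low dose and 0.12 ± 0.08 with the high dose, both within 2 spot SDs. The high-dose value turned negative without scaling, with median scaling and with spike-in scaling, so no direction is given for ACLY at 100 μM.

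The 2 acetyl-CoA carboxylases, which make malonyl-CoA, parted at the high dose. ACACA encodes the cytosolic enzyme whose product feeds fatty acid synthase, and ACACB the enzyme at the mitochondrial surface whose product restrains entry of fatty acids into mitochondria through CPT1. Each was read by 2 probes, and the middle 30 bases (bases 16 to 45 of 60) of each are shown because the ACACB results differ by probe. The ACACA probes lie at chr17:32516046-32516105 (ACACA bright) and chr17:32761350-32761409 (ACACA dim), on the minus strand of hg18, and those of ACACB at chr12:108190352-108190411 (ACACB bright) and chr12:108187461-108187628 (ACACB dim), on the plus strand. The last spans 168 bases for a 60-base probe and so is not contiguous on the genome. Exon and UTR annotation on hg18 was not used here.
ACACA bright: gatgcactctttacacattttgttgaaata
ACACA dim: taataggttctgtgtctgaagataactcag
ACACB bright: agagagcctactaggaaatgtgcagaataa
ACACB dim: tgtgggacaacaaccaggtggttgtgcagt

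The brighter ACACA probe read 5749 in control cells, 4348 with the low dose and 3408 with the high dose. The other probe, far from it in the gene, read 258, 188 and 160 in the same order. Control cells were the highest of the 3 conditions on both probes. The log2 fold changes of the brighter probe were -0.46 ± 0.07 (0.725-fold) at the low dose and -0.50 ± 0.07 (0.705-fold) with the high dose, and those of the other probe were -0.51 ± 0.10 and -0.44 ± 0.11. Under the scalings tried, the brighter probe ranged from -0.49 to -0.40 at the low dose and from -0.79 to -0.44 with the high dose, so its direction held throughout. Between doses its values differed by 0.04 ± 0.06, within the spot noise.

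The brighter ACACB probe read 402 in control cells, 356 with the low dose and 558 with the high dose. The high dose was the highest of the 3 conditions and the low dose the lowest. Its log2 fold change was -0.24 ± 0.08 at the low dose and 0.72 ± 0.08 (1.65-fold) with the high dose, and the low dose was below the high dose by 0.96 ± 0.08 on the log2 scale (a ratio of 0.514). Scaling moved these values from -0.26 to -0.18 at the low dose and from 0.43 to 0.79 with the high dose, with no change of direction. The dimmer probe read 24.9, 42.7 and 33.3, close to the lowest signals well above background (19.5 to 22.7), and gave 0.72 ± 0.42 at the low dose and 0.67 ± 0.45 with the high dose. Both of its values were above 0 but within 2 spot SDs, so the probes disagreed at the low dose, where the mean of both was 0.24, and pointed the same way at the high dose. Between doses the dimmer probe gave 0.05 ± 0.32, within the spot noise.

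Fatty acid synthase, which assembles palmitate from malonyl-CoA, differed by little in any condition. FASN (chr17:77629505-77629564 on hg18, minus strand) read 5474 in control cells, 5482 with the low dose and 4906 with the high dose. Its log2 fold changes were -0.06 ± 0.07 and 0.09 ± 0.07, both within 2 spot SDs, and the sign of each depended on the scaling, with a value of 0.00 without scaling at the low dose and -0.16 with the high dose.

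The enzymes that modify palmitate were both lower at the low dose. SCD, the stearoyl-CoA desaturase that makes monounsaturated fatty acids (chr10:102113907-102113966, plus strand), read 2092, 1855 and 1802 in control, low-dose and high-dose cells. Its log2 fold change was -0.23 ± 0.07 at the low dose, while 0.03 ± 0.07 at the high dose was within 2 spot SDs and turned negative without scaling and with median and spike-in scaling. ELOVL6, the elongase that takes palmitate to stearate (chr4:111190620-111190679, minus strand), read 254, 205 and 183. Before scaling, control cells read highest for both genes. The log2 fold change of ELOVL6 was -0.37 ± 0.10 at the low dose and -0.23 ± 0.11 with the high dose, the latter close to the limit of 2 spot SDs, and it stayed below 0 under every scaling (at most -0.16 at the high dose). A second ELOVL6 probe, of an Ensembl transcript, read 22.5, 14.5 and 21.3 and was well above background in control cells only, so that at the low dose it gave a bound that does not reach a change (-0.05).

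**Figure D2:**
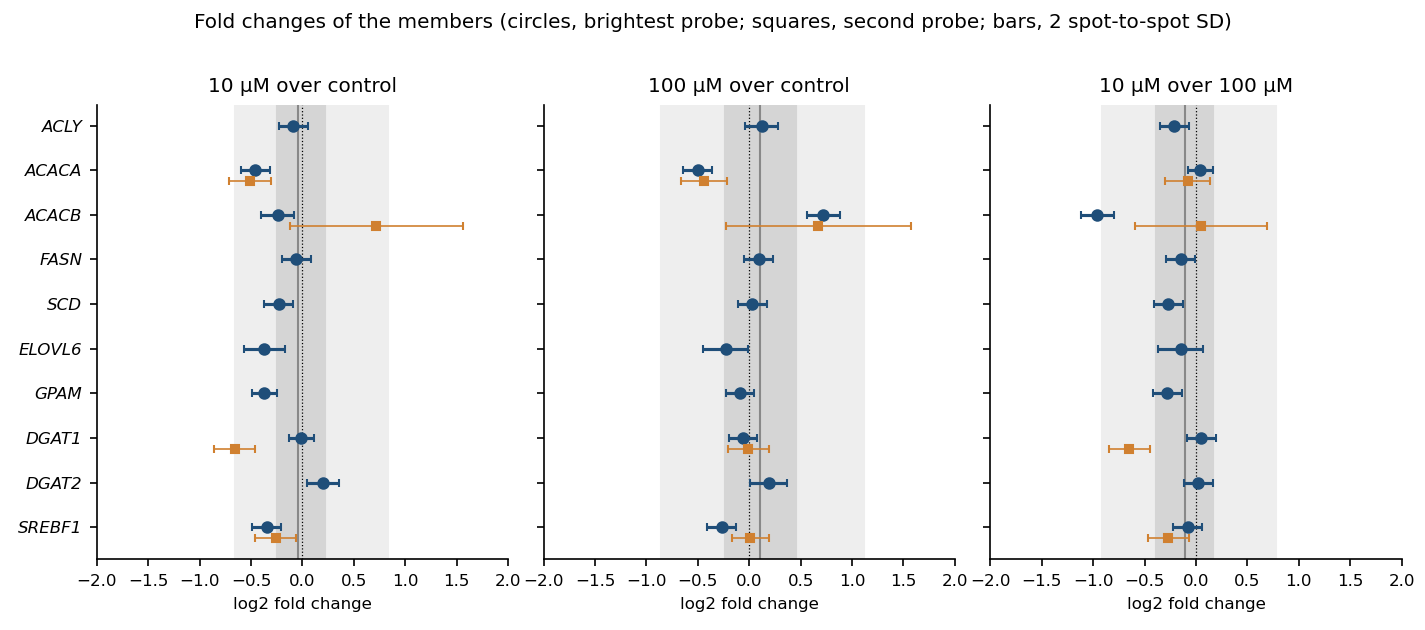
Log2 fold change of each member for 10 μM over control, 100 μM over control and 10 μM over 100 μM, with circles for the brightest probe, squares for the second probe where measured and bars of 2 spot-to-spot SDs. The dark grey band lies between the quartiles of all genes, the light band between their 5th and 95th percentiles, and the grey line is their median. The circles sit left of the grey line at 10 μM except those of DGAT1 and DGAT2, the ACACA probes stay near -0.5 at both doses, and ACACB is the 1 member whose brightest probe passes 1.5-fold. The signs of FASN, SCD, ACLY, DGAT1 and DGAT2 at 100 μM depend on the scaling.

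Of the glycerolipid enzymes, GPAM, the mitochondrial glycerol-3-phosphate acyltransferase that commits acyl-CoA to glycerolipid, was lower at the low dose. It read 5105 in control cells, 4125 with the low dose and 4026 with the high dose (chr10:113899817-113899876, minus strand). Its log2 fold change was -0.37 ± 0.06 at the low dose (0.774-fold) and -0.09 ± 0.07 at the high dose, where it was within 2 spot SDs. The low-dose value stayed between -0.39 and -0.31 under the scalings tried.

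DGAT1 and DGAT2 catalyse the last step, the acylation of diacylglycerol, with unrelated proteins. The brighter DGAT1 probe read 2633, 2721 and 2119 in control, low-dose and high-dose cells and gave -0.01 ± 0.06 and -0.06 ± 0.07. The other DGAT1 probe read 266, 176 and 223 and gave -0.66 ± 0.10 at the low dose and -0.01 ± 0.10 with the high dose. The probes thus agreed at the high dose, within 2 spot SDs of 0, and disagreed at the low dose, where the second probe was 0.634-fold of control and no direction can be given for the gene. DGAT2 (chr11:75189491-75189550, plus strand) read 510, 613 and 488. As scaled here it was the 1 member above the control at both doses, at 0.20 ± 0.08 and 0.19 ± 0.09, just past 2 spot SDs, with the high-dose value falling to -0.10 with median scaling.

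The regulator SREBF1 was lower at the low dose on both of its probes. The brighter probe (chr17:17656144-17656203, minus strand) read 7877 in control cells, 6459 with the low dose and 5507 with the high dose, and the second, next to it at chr17:17656029-17656088, read 306, 267 and 259. Before scaling, both probes read highest in control cells. The low-dose log2 fold changes were -0.35 ± 0.07 and -0.26 ± 0.10. At the high dose the brighter probe gave -0.27 ± 0.07 and the second 0.01 ± 0.09, so the probes parted there although they lie close together in the gene.

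By the brightest probe at both doses, ACACA, ELOVL6, SREBF1 and GPAM lay below the control in both comparisons, DGAT2 above it in both, and ACACB below at one and above at the other. At the high dose GPAM was within 2 spot SDs of the control (-0.09 ± 0.07). The remaining members, FASN, ACLY, SCD and DGAT1, also lay within 0.12 of 0 at the high dose, and their sign there depended on the scaling. On hg18, 4 of the members (ACACA, ACLY, FASN and SREBF1) lie on chromosome 17 and 2 (GPAM and SCD) on chromosome 10. On chromosome 17, ACACA and, by its brighter probe, SREBF1 were lower at both doses, and FASN and ACLY lay within 2 spot SDs of the control. At the high dose the second SREBF1 probe gave 0.01 ± 0.09.

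**Figure D3:**
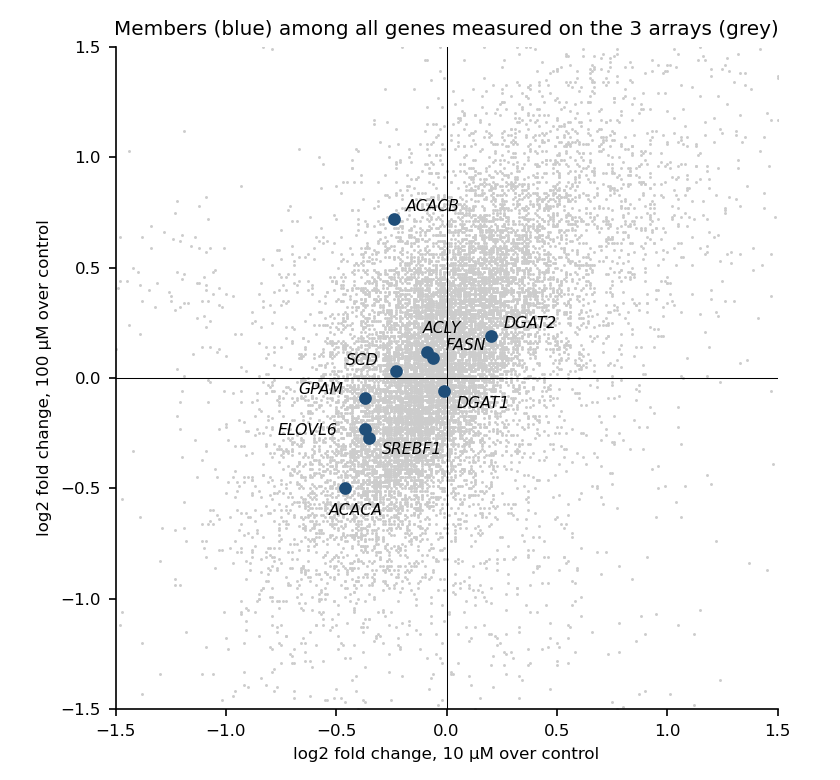
Log2 fold change at 100 μM against that at 10 μM, both over the same control array, for the members (blue) and the genes measured in every condition (grey). The axes end at 1.5, and 515 of 15178 genes fall outside. ACACA, ELOVL6, SREBF1 and GPAM are in the lower left, GPAM within 2 spot SDs of 0 at 100 μM. ACACB is alone among the members in the upper left beyond 0.5, and FASN, ACLY, SCD and DGAT1 are near 0 at 100 μM, with signs that depend on the scaling.

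Directly compared by the brightest probe and as scaled here, the low dose lay below the high dose for 7 of 10 members. The median log2 ratio of 10 μM over 100 μM was -0.15. The median of all 16688 genes was -0.11, with quartiles of -0.39 and 0.16, so values below 0 were the more common among all genes too. None passed 2-fold, against 3.66% of all genes that were higher at the low dose and 3.97% that were lower. At 1.5-fold, ACACB was the 1 member lower at the low dose, where 14.4% of all genes were. Beyond 2 spot SDs, FASN, SCD, ACACB, ACLY and GPAM were lower at the low dose, where 36.4% of all genes were, and no member was higher, where 23.8% of all genes were. Of these 5, only ACACB kept its direction under every scaling by its brighter probe, whereas FASN, SCD, ACLY and GPAM turned positive without scaling. ELOVL6 (-0.15) and SREBF1 (-0.08), lower but within 2 spot SDs, did so too. The dimmer ACACB probe gave 0.05 ± 0.32, so a difference between doses rests on 1 probe. Of the other second probes, those of DGAT1 (-0.65 ± 0.10) and SREBF1 (-0.27 ± 0.10) were lower beyond 2 spot SDs. That of ACACA (-0.08 ± 0.11) was within them.

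The scaling between arrays mattered most for the high dose. The 75th percentile of the processed signal was 514 in control cells, 536 with the low dose and 432 with the high dose, a shift of -0.25 on the log2 scale from control to high dose, where 7 spike-in controls shifted by -0.08. The median over all genes at 100 μM was 0.10 as scaled here, 0.16 with the percentile over spots, 0.03 after quantile normalization, -0.08 with spike-in scaling, -0.15 without scaling and -0.19 with median scaling. The members moved with it. Relative to the median of all genes they were at -0.20 at the low dose, -0.11 at the high dose and -0.04 between doses, in every scaling that shifts a whole array by 1 value.

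**Figure D4:**
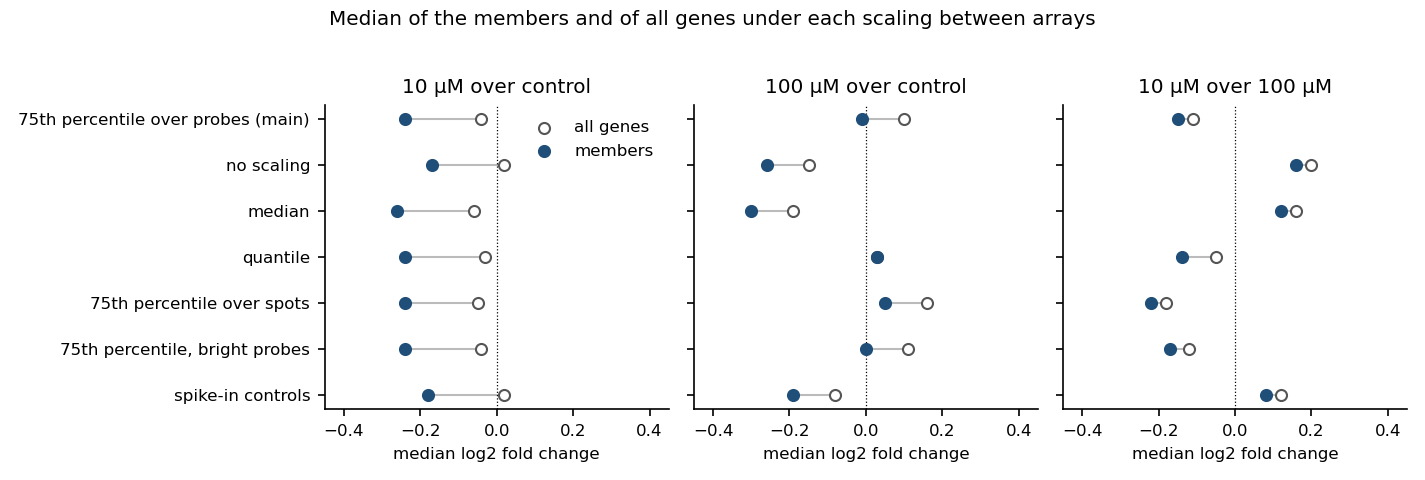
Median log2 fold change of the 10 members (filled) and of all genes (open) under 7 scalings between arrays, for each of the 3 comparisons. The members lie left of all genes at 10 μM under each scaling, while at 100 μM and between doses both medians change sign with the scaling, and at 100 μM they coincide after quantile normalization.

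Other genes of the pathway were taken from lists that were chosen with earlier results of these data known. The list of fatty acid supply, elongation and desaturation has 22 genes, of which 18 had a fold change at the low dose and 17 with the high dose, and its median was 0.01 and -0.03. The desaturases FADS1, FADS2 and FADS3, which introduce double bonds closer to the carboxyl end in polyunsaturated chains or are related to enzymes that do, were the highest of its genes measured in both conditions at the low dose. These genes neighbour each other on chromosome 11, with 0 other protein-coding genes between them in the RefSeq table. FADS3 read 264 in control cells, 1096 with the low dose and 491 with the high dose, a log2 fold change of 1.99 ± 0.08 and 1.14 ± 0.09. FADS2 read 795, 1389 and 1212, and its log2 fold changes were 0.74 ± 0.07 and 0.86 ± 0.08. FADS1 read 3311, 5835 and 2259, which is 0.76 ± 0.07 at the low dose and -0.30 ± 0.07 with the high dose. All 3 desaturases were thus above the control at the low dose, whereas SCD, the desaturase among the members, was below it. ELOVL3, an elongase, passed 2-fold at the low dose only as a bound, being well above background at 46 in low-dose cells and not in control cells (at least 2.26-fold higher on the processed signal, but a log2 fold change of 0.49, under 2-fold, with normexp correction), and no gene of the list was lower by 2-fold at either dose. INSIG1, ME1, THRSP and SCD5 were not well above background on any array.

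The list of acyl activation and glycerolipid assembly had 19 genes, 16 with a fold change, and medians of -0.02 and 0.09. None passed 2-fold at the low dose. At the high dose LPIN3, a phosphatidate phosphatase of the lipin family, read 4882 against 2492 in control cells (1.22 ± 0.07) and MOGAT3, a monoacylglycerol acyltransferase, read 190 against 89.2 (1.34 ± 0.14). ACSL3, an acyl-CoA synthetase of lipid droplets, was the lowest of the list at the low dose, at -0.61 ± 0.07, and was -0.55 ± 0.08 at the high dose. Among 24 regulators, 22 had a fold change, with medians of -0.08 and 0.24, and the high-dose median was -0.01 without scaling. MLXIPL, which encodes the glucose-responsive factor ChREBP, read 6296 in control cells, 5689 with the low dose and 8133 with the high dose (-0.21 ± 0.07 and 0.62 ± 0.07). PRKAG2, a subunit of the AMP-activated kinase that phosphorylates acetyl-CoA carboxylase, was the 1 regulator past 2-fold at the high dose, at dim signals of 27.7 and 50 (1.10 ± 0.39), and fell short of it with normexp background correction (0.51).

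Genes that act downstream of triglyceride synthesis were set beside the members. Of 17 genes of lipid droplets and lipolysis, 14 had a fold change, with medians of 0.20 at the low dose and 0.57 with the high dose (0.28 to 0.63 over the scalings). PLIN5 and PLIN4, coat proteins of lipid droplets, passed 2-fold at the low dose, at 1.20 ± 0.20 and 1.15 ± 0.08, although PLIN5 came under it with normexp correction (0.73). At the high dose PLIN5 (1.40 ± 0.21) and CIDEB and CIDEC, droplet proteins of the CIDE family, did so. CIDEB read 1251, 1256 and 2339 (1.15 ± 0.07 at the high dose) and CIDEC 3087, 4181 and 5417 (1.06 ± 0.07). PNPLA3, a known target of SREBP-1 at the droplet surface, read 336, 216 and 461, and so was below the control at the low dose (-0.70 ± 0.10) and above it at the high dose (0.71 ± 0.08).

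Fatty acid oxidation, the opposing pathway, had medians of -0.12 at the low dose and 0.28 with the high dose over 24 of 25 genes, the latter -0.01 with median scaling. CPT1A, the mitochondrial entry step that malonyl-CoA inhibits, read 26.1 in control cells, 44.9 with the low dose and 90.3 with the high dose. Its log2 fold change was 0.72 ± 0.13 and 2.04 ± 0.12, with 1.02 at the high dose after normexp correction of the dim control signal. SLC25A20, the carnitine carrier, and ACADVL, the first dehydrogenase for long chains, also passed 2-fold at the high dose (1.23 ± 0.09 and 1.05 ± 0.07), and HADH, which encodes the dehydrogenase for short and medium chains, was lower by more than 2-fold (-1.23 ± 0.07, from 2873 to 1032). The cholesterol genes, which share SREBP control, had medians of -0.31 at the low dose and 0.31 with the high dose over all 22 genes, with 20 of 22 below the control at the low dose and 17 above it at the high dose. Without scaling the high-dose median was 0.06. TM7SF2, a sterol reductase, was the 1 gene of this list past 2-fold upwards at the high dose (1.08 ± 0.03). Of the list genes named here as past 2-fold at the high dose, MOGAT3, PLIN5, CPT1A and HADH were so under every scaling, whereas FADS3, LPIN3, PRKAG2, CIDEB, CIDEC, SLC25A20, ACADVL and TM7SF2 came under it with 1 or more of the scalings, and MOGAT3, PLIN5 and PRKAG2 with normexp correction.

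**Figure D5:**
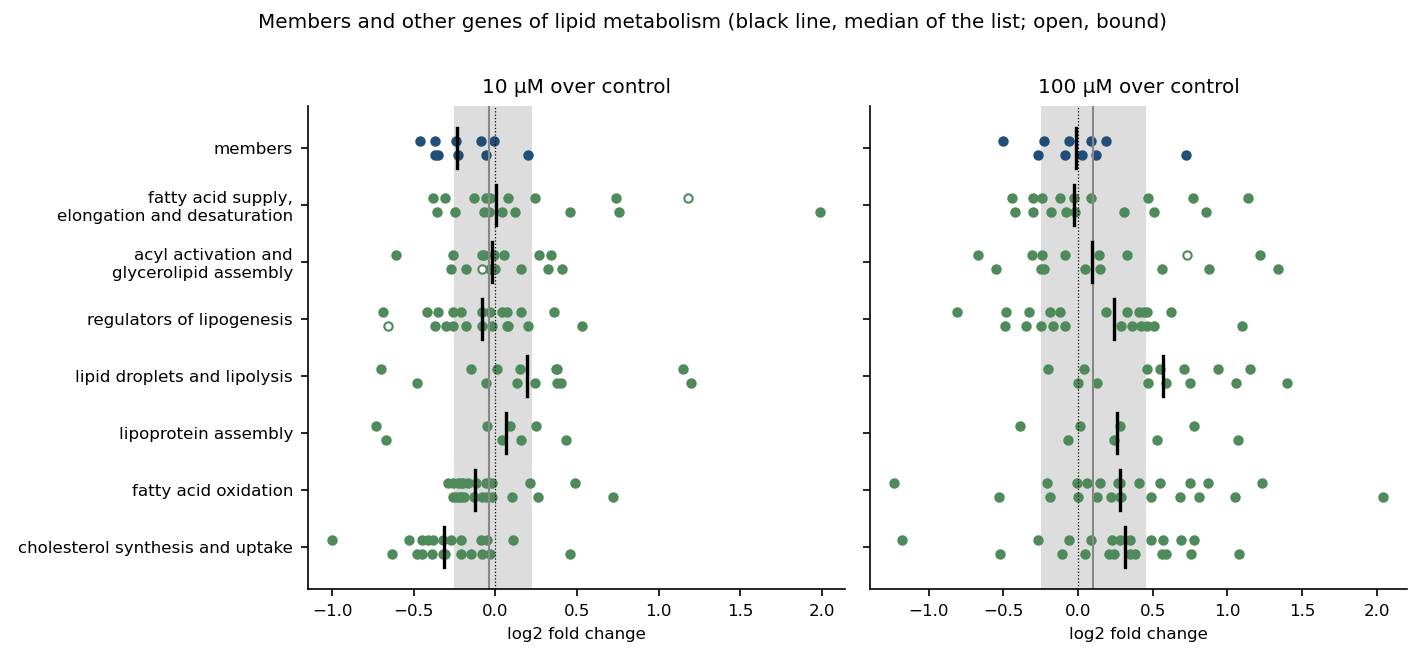
Log2 fold changes at 10 μM and 100 μM over control for the members (blue) and 7 lists of other lipid genes (green), with 1 point per gene, open points for bounds, a black line for the median of each list and a grey band between the quartiles of all genes. At 10 μM the medians of the members (-0.24) and of the cholesterol genes (-0.31) lie lowest, and at 100 μM the members stay at -0.01 while the cholesterol (0.31), oxidation (0.28) and droplet (0.57) medians are higher. The member and oxidation medians at 100 μM are below 0 with median scaling.

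The treatment itself was visible on the same arrays. The 10 genes of the p53 response had a median log2 fold change of 1.80 at the low dose and 1.48 with the high dose, with 8 and 7 of them past 2-fold. The 10 genes of the G2/M phase had a median of -0.13 at the low dose and -2.81 with the high dose, where all 10 passed 2-fold downwards. These shifts moved with the doses on the same arrays as the values of the members, and their part in those values was not tested.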

How the data were processed

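Gene expression of HepG2 cells was measured on 3 one-colour Agilent arrays of 1 slide, 1 per condition. The authors deposited 1 file per array from the Feature Extraction software (10.7.3.1, per the labels) with a processed intensity per spot, background-subtracted on a linear scale. A series table held the same numbers for all 44495 spots, unscaled between arrays. The number of arrays limits the precision.

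From the deposited intensity, log2 values were averaged over the spots of a probe without outlier spots and set relative to the 75th percentile over probes of each array. The brightest probe stands for a gene. Fold changes were computed where the brighter condition was well above background. A dimmer signal below the lowest such signal of its array was raised to it, which gives a bound. No test between conditions was possible. Python 3.11.15, numpy 2.4.6, pandas 2.3.3, R 4.3.3 and limma 3.58.1 (normexp, offset 50) were used, and the steps were tested on simulated data. The members and lists were chosen with earlier results of these data known. All members were named, and from each list the 3 highest or lowest genes at either dose or those past 2-fold. Alternatives were 6 other scalings, normexp, filters on dim probes, outlier spots, other probes, the series table and other fold thresholds. Positions of probes were read from the files (hg18), and upstream sequences come from RefSeq on GRCh38.p14. Control spots were left out, except the spike-ins for scaling, and some list genes are not reported here.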

Additional observations from a re-analysis of the deposited data

Results flagged for a closer look

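ACACB was flagged because its brighter probe moved in opposite directions at the doses, with a log2 fold change of -0.24 at 10 μM and 0.72 at 100 μM over the same control array. With 1 array per condition this difference between doses was not tested. The dimmer ACACB probe gave 0.72 ± 0.42 (spot SD) at 10 μM and 0.67 ± 0.45 at 100 μM, at signals close to the background limit.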

How the results depend on the processing

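At 10 μM the median of the members (-0.24) and the absence of members past 2-fold kept their values within the spot SD under all alternatives tried. At 100 μM the median of -0.01 was -0.26 without scaling, -0.30 with median scaling and -0.19 with spike-in scaling. Between doses the median of -0.15 became 0.16, 0.12 and 0.08 under the same 3 scalings and -0.22 with the 75th percentile over all spots. These shifts follow from the scaling itself, which adds 1 value to every gene of an array. With the percentile over all spots, 1 member (ACACB, -1.03) was lower at 10 μM than at 100 μM by more than 2-fold, and a threshold of 1.5-fold gave 1 member (ACACB) there and 1 (ACACB) higher at 100 μM. Of 403 values of single members under alternatives, 87 moved by more than the spot SD. The series table gave the same values as the scanner files. No paired analysis was possible because a single array was run for each condition, and no array could be left out. Dim probes limit what can be said of the second probes of ACACB and ELOVL6.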
